A study of Mus musculus with 22 samples.

Results

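The genes described here are 38 mouse genes by which macrophages and other leukocytes are recognised, followed through RNA sequencing of lung epithelium. They were taken as a named list, which was chosen with earlier results of these data known. They fall into 5 roles: 12 surface receptors of macrophages and monocytes, 8 secreted or lysosomal macrophage products, 6 genes shared by myeloid cells and lymphocytes, 6 genes of myeloid signalling, the phagocyte oxidase and myeloid transcription, and 6 lymphocyte genes. Of the 38, 20 were analysed in late embryos (E18.5) among 13750 genes and 31 at 6 months among 15958 genes. All 20 of the E18.5 genes were among the 31. Cd163, C1qc, Aif1, Cd3e, Cd3g, Ms4a1 and Nkg7 were not analysed here at either age, so the lymphocyte role rests on Cd79b at E18.5 and on Cd79a and Cd79b at 6 months.

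The study asked, as its title puts the matter, how the long noncoding RNA NANCI and its neighbour gene Nkx2.1 keep Nkx2.1 expression buffered in the lung. The 22 libraries come from 4 genotypes. WT is NANCI-+/+, NANCI is NANCI-CreERT2:RFP/CreERT2:RFP, Nkx is Nkx2.1-GFP/+ and Double is NANCI-CreERT2:RFP/+:Nkx2.1-GFP/+. Each genotype had 3 libraries at E18.5. At 6 months there were 3 WT, 3 Nkx and 4 Double libraries and no NANCI library. The alleles are present in every cell as far as the labels state, and neither strain nor any tamoxifen treatment is given. No label says that replicates come from different animals, and the p-values then reflect the scatter of the libraries at hand, which may be partly technical.

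Neither preparation was meant to hold leukocytes. At E18.5, cells were pulled down on magnetic beads by EpCAM, a surface protein of epithelium, and no step against leukocytes is named. At 6 months, cells were sorted by flow cytometry for EpCAM and against CD45, the product of Ptprc, and CD31, an endothelial protein. Epcam itself lay between 12.78 and 14.00 on the log2 scale at E18.5 and between 12.95 and 13.81 at 6 months. That is the level of a single gene and no measure of purity. In 6-month WT libraries 12 endothelial genes averaged 11.28 to 12.50, and 11 fibroblast and smooth muscle genes 9.31 to 10.07. Transcripts of leukocytes in such material can come from cells carried through the preparation or from epithelial cells that express the gene. In bulk RNA, fewer cells of a type and less RNA per cell cannot be told apart. Age and method of enrichment change together, so the ages were not tested against each other.

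Macrophages live in the lung from before birth. They depend on the cytokine receptor encoded by Csf1r and on the transcription factor PU.1, the product of Spi1, and they are recognised by Adgre1 (F4/80), the mannose receptor Mrc1 and the scavenger receptor Stab1. Around birth, fetal monocytes give rise to alveolar macrophages, which carry Marco, Siglecf and Itgax. Ptprc is carried by nearly all leukocytes, while Cd79a and Cd79b encode the signalling chains of the B cell receptor.

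Promoter sequence is shown for 5 genes on which the E18.5 result turns, of which Mrc1, F13a1, Stab1 and Cx3cr1 moved together and Ccr2 moved against them. The motif GAGGAA, the core that PU.1 recognises, was searched on both strands in the 250 bases before each start site (RefSeq, build GRCm38.p6). Of 27025 genes with such a window, 6986 (25.9%) held it. Of the leukocyte genes, 29 had a window and 18 of them (62.1%) held the motif. Of the 10 genes lower in both E18.5 Nkx and Double, 7 had a window, and 6 of the 7 (85.7%) held the motif. Adgre1, Csf1r and Cd79b had no window. Among the other leukocyte genes analysed at E18.5 it was in 3 of 8 (37.5%), namely Cd68, Ptprc and Laptm5. Those 8 include Ptprc, Laptm5 and Fcer1g, which fell in Double alone. The matches are of letters and not measured sites, and no link between the motif and the falls was tested. Each line below gives a sequence 5′ to 3′ in the direction of transcription, with the motif in capitals, as GAGGAA on the gene's strand or TTCCTC where it lies on the opposite strand. The Mrc1 window is chr2:14229164-14229413 (plus strand), F13a1 chr13:37050245-37050494 (minus strand), Stab1 chr14:31168642-31168891 (minus strand), Cx3cr1 chr9:120068297-120068546 (minus strand) and Ccr2 chr9:124101933-124102182 (plus strand).
Mrc1: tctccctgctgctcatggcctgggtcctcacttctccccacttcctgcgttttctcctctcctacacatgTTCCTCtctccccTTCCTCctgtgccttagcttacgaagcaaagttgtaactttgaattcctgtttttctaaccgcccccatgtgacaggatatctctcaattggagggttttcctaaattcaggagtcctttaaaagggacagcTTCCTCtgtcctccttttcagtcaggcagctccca
F13a1: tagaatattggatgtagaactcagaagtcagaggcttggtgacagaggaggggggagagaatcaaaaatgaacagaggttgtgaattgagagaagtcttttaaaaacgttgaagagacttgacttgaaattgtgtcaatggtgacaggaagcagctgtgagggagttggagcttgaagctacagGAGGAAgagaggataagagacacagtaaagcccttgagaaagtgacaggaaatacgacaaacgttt
Stab1: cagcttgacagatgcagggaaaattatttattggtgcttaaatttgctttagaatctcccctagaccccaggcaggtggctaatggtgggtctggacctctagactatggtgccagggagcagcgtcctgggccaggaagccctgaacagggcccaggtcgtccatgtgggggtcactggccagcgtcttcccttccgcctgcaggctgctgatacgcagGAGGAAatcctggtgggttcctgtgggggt
Cx3cr1: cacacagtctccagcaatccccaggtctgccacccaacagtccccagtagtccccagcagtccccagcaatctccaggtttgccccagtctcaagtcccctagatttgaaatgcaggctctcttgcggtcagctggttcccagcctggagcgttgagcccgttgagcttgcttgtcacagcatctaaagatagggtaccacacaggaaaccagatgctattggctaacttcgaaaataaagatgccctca
Ccr2: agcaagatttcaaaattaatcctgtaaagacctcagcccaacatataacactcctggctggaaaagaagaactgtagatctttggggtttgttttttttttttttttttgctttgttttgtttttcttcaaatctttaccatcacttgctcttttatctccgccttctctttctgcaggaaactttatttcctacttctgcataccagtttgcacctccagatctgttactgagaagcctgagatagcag
Mrc1 held 3 matches, all on the opposite strand. F13a1 and Stab1 held 1 each, beginning 66 and 30 bases before the start site. The Cx3cr1 and Ccr2 windows held none. A second RefSeq window of F13a1 also held none.

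The deposited values are log2 expression, 1 per gene and library, and libraries of an age share nearly the same distribution. The median of a library was 9.9 in all of E18.5 and 9.58 to 9.59 in those of 6 months. Read totals are unknown, and the lowest value of a library, held by 10 to 37 genes at E18.5 and by 4 to 201 at 6 months, was read as no reads. Values of 1 to 3 therefore stand for very few reads, and a log2 difference that ends there has an uncertain size. The values are not stated to be per length, so levels are compared between libraries and never between genes. Every sentence with a fold change gives log2 differences with the standard error from limma after ±, and a gene is said to have risen or fallen only where its p, Benjamini-Hochberg adjusted over all genes of the age, was under 0.05. At 6 months replicates 2 and 3 of both Double and Nkx stood apart for these genes, as set out with the 6-month results.

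**Figure D1:**
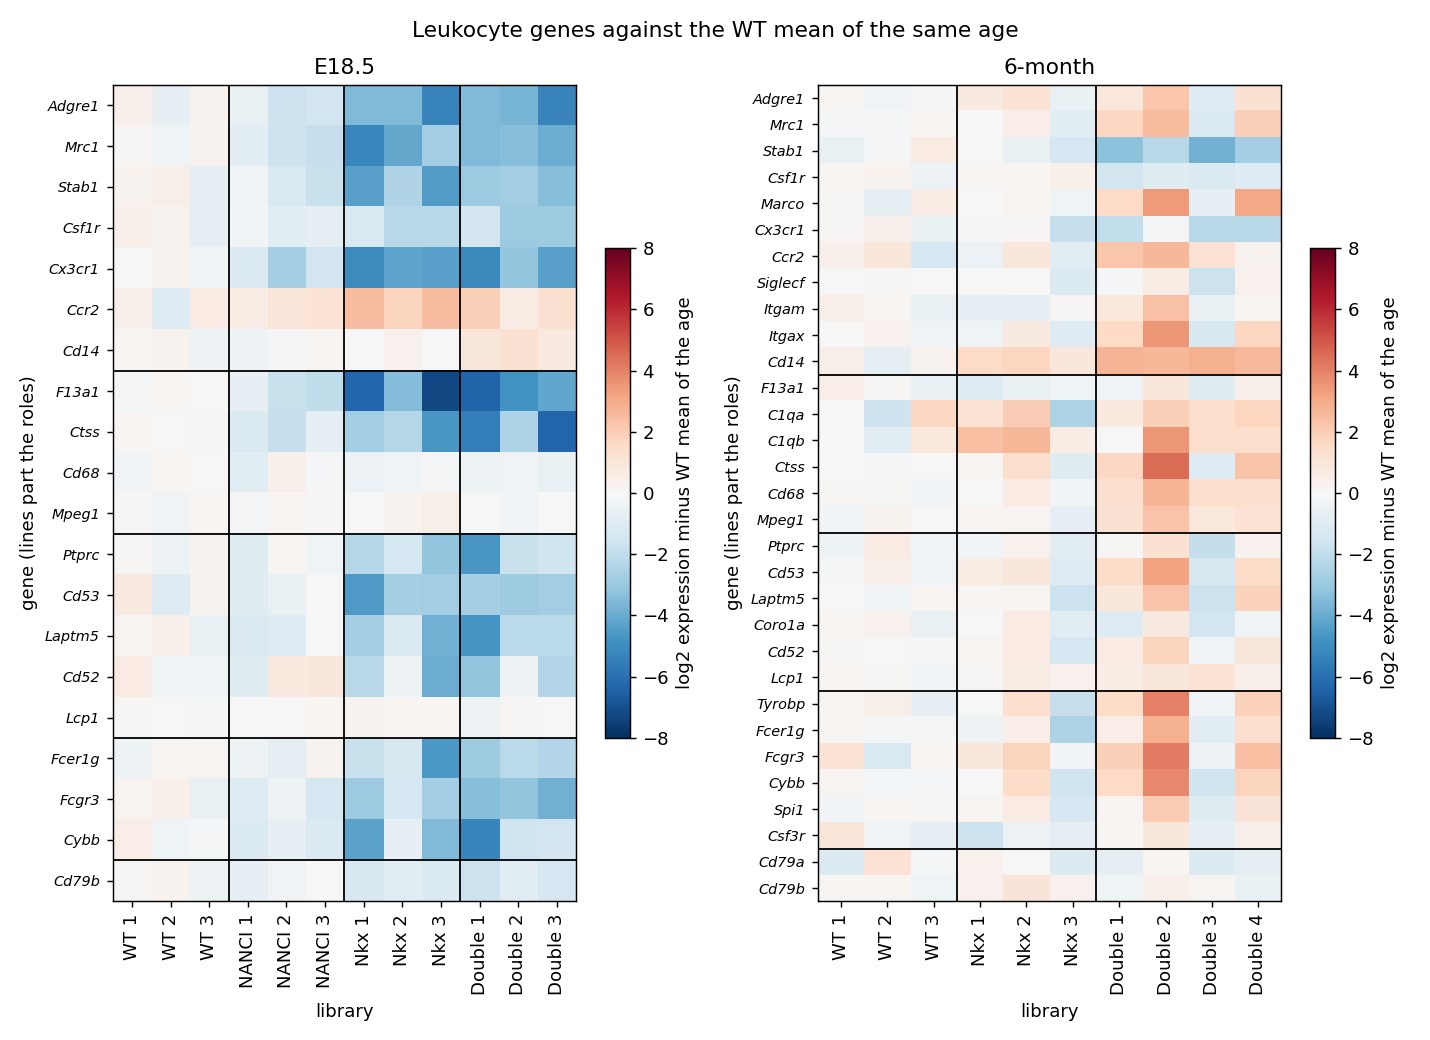
Each row is a leukocyte gene, grouped by role, and each column a library of E18.5 (left) or 6 months (right); colour gives the log2 expression minus the mean of the WT libraries of that age. The E18.5 Nkx and Double columns are low for most genes, with Ccr2 and Cd14 apart, whereas the 6-month columns differ from library to library within Nkx and within Double.

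At E18.5 the leukocyte genes were lower in both genotypes that carry the Nkx2.1-GFP allele. In Nkx against WT, 10 of 20 fell and 1 rose, where 3.65% of all genes tested fell and 3.67% rose. In Double against WT, 13 fell and 1 rose, where 7.47% of all genes fell and 7.13% rose. The median change of the 20 genes was -2.43 in Nkx and -2.71 in Double, beside 0.02 for all genes in both. All 10 genes that fell in Nkx also fell in Double. Both comparisons use the same WT libraries. Over the single libraries, 12 of the 20 genes were lower in every one of the 6 Nkx and Double libraries than in every one of the 6 WT and NANCI libraries, and none was higher, where 5.56% of all genes were lower in this way and 5.69% higher.

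Among the surface receptors, 5 of 7 fell in Nkx and the same 5 fell in Double. Mrc1, the mannose receptor of tissue macrophages, was 8.86, 8.39 and 9.04 for WT, 7.94, 7.12 and 6.91 for NANCI, 3.52, 4.67 and 6.06 for Nkx and 5.25, 5.34 and 4.77 for Double. Every Nkx and Double library lay below every WT and NANCI library. Mrc1 fell by 4.01 ± 0.52 in Nkx (limma, adjusted p = 0.00076) and by 3.64 ± 0.52 in Double (adjusted p = 0.000736), which is 16.1-fold and 12.5-fold.

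Cx3cr1 encodes the receptor for the chemokine fractalkine. It stood at 7.11, 7.39 and 6.76 for WT, at 5.99, 4.45 and 5.57 for NANCI, at 1.99, 2.89 and 2.76 for Nkx and at 1.92, 4.01 and 2.76 for Double. NANCI lay between WT and the other two genotypes and overlapped neither, while Nkx and Double overlapped each other. The change was -4.54 ± 0.59 in Nkx and -4.19 ± 0.59 in Double (limma, adjusted p = 0.000725 and 0.000627).

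Adgre1, whose product F4/80 is the classical marker of mouse macrophages, was 6.79, 5.73 and 6.71 for WT and 5.79, 4.74 and 4.91 for NANCI. It was 2.89, 2.89 and 1.13 for Nkx and 2.89, 2.70 and 1.13 for Double, the 1.13 being the lowest value of its library in each case. The drop was -4.10 ± 0.66 in Nkx and -4.17 ± 0.66 in Double (limma, adjusted p = 0.00283 and 0.00144). With every value under 5 raised to 5, which takes out differences among very low values, Adgre1 and Cx3cr1 still fell in Nkx, by 1.41 and 2.09.

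Stab1, a scavenger receptor of macrophages that some endothelial cells also carry, was 7.50, 7.74 and 6.48 for WT, 6.99, 6.01 and 5.44 for NANCI, 2.89, 4.86 and 2.76 for Nkx and 4.31, 4.48 and 3.84 for Double. Csf1r, the receptor of the macrophage growth factor, was 8.60, 8.46 and 7.43 for WT, 7.94, 7.33 and 7.46 for NANCI, 6.93, 5.97 and 5.97 for Nkx and 6.70, 5.23 and 5.32 for Double. For both genes all Nkx and Double libraries were below all WT and NANCI libraries. Stab1 fell by 3.73 ± 0.60 and by 3.03 ± 0.60 (limma, adjusted p = 0.00277 and 0.00513 for Nkx and Double). The smaller changes of Csf1r, -1.88 ± 0.45 and -2.41 ± 0.45, had adjusted p = 0.0233 in Nkx and 0.00346 for Double (limma). In Nkx the Csf1r call was lost in 5 of 14 other settings, among them the fits without WT replicate 1 or 2 and without Nkx replicate 2 or 3.

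Ccr2, the chemokine receptor of inflammatory monocytes, went the other way. It was 6.74, 5.27 and 6.97 for WT, 6.89, 7.29 and 7.39 for NANCI, 8.80, 8.08 and 8.77 for Nkx and 8.26, 6.95 and 7.53 for Double. All Nkx libraries were above all WT libraries, and Double overlapped WT by 1 library. The rise was 2.23 ± 0.44 in Nkx (limma, adjusted p = 0.00926), a 4.68-fold difference, and in Double the difference of 1.25 ± 0.44 had adjusted p = 0.0788. When libraries were centred on 12 pan-epithelial genes, the Nkx value was 2.23 with adjusted p = 0.194.

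Cd14, the co-receptor for bacterial lipopolysaccharide, was 9.18, 9.30 and 8.60 for WT, 8.62, 8.91 and 9.19 for NANCI, 8.98, 9.39 and 9.06 for Nkx and 9.93, 10.24 and 9.71 for Double. The Double libraries stood above the rest. Cd14 rose by 0.94 ± 0.23 in Double (limma, adjusted p = 0.0158) and differed by 0.12 ± 0.23 in Nkx (adjusted p = 0.805). The Double call was lost in 4 of 14 other settings, among them the fit without Double replicate 2 and the centring on pan-epithelial genes, where the value was 0.58.

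**Figure D2:**
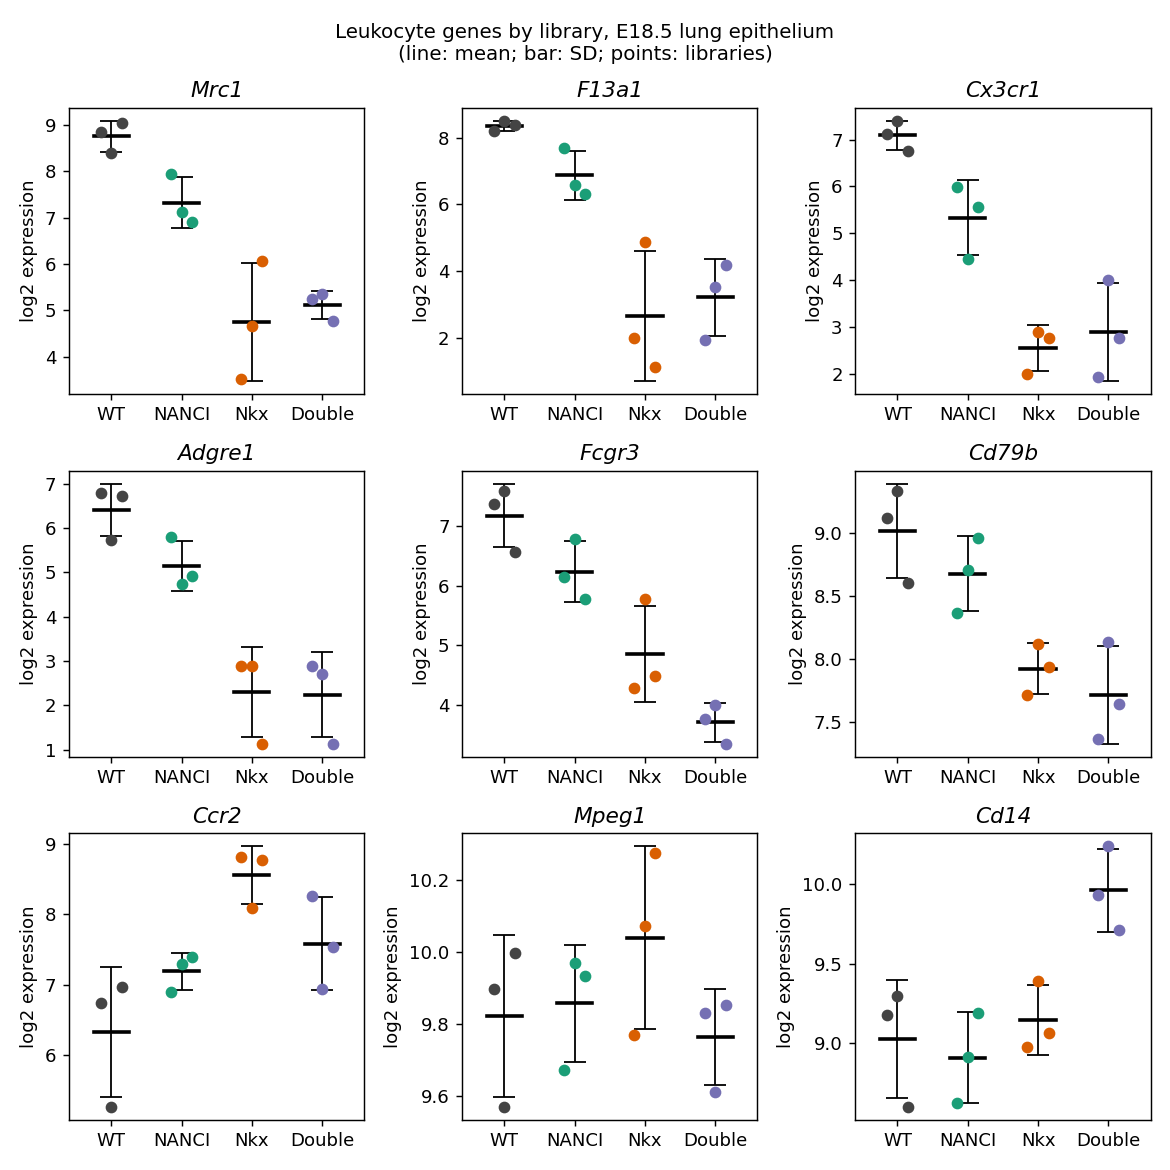
Points are E18.5 libraries, lines the group means and bars the SD, in log2 expression, for 9 of the genes. Mrc1, F13a1, Cx3cr1, Adgre1, Fcgr3 and Cd79b step down from WT to the Nkx and Double groups, Ccr2 is highest in Nkx, Cd14 is highest in Double, and the Mpeg1 groups overlap within less than 1 log2 unit.

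The secreted and lysosomal products divided evenly, with 2 of 4 falling in each genotype. F13a1, the coagulation factor XIII A chain made by macrophages and platelets, was 8.19, 8.50 and 8.39 for WT, 7.70, 6.59 and 6.32 for NANCI, 1.99, 4.86 and 1.13 for Nkx and 1.92, 3.52 and 4.18 for Double. It was at the library's lowest value in Nkx replicate 3, and all Nkx and Double libraries were below all others. Its fitted change was -5.70 ± 0.83 in Nkx and -5.15 ± 0.83 in Double (limma, adjusted p = 0.00162 and 0.00166), the largest of the 20 genes on the values as deposited. With values under 5 raised to 5 it was -3.36 in both, still past the threshold, and Mrc1 then changed more, by -3.41 in Nkx and -3.57 in Double.

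Ctss, a lysosomal protease of antigen-presenting cells, was 7.63, 7.42 and 7.28 for WT, 6.28, 5.60 and 6.72 for NANCI, 4.74, 5.18 and 2.76 for Nkx and 1.92, 4.97 and 1.13 for Double. All Nkx and Double libraries were below all WT and NANCI libraries. The change was -4.77 ± 0.86 in Double (limma, adjusted p = 0.00306) and -3.22 ± 0.86 in Nkx (adjusted p = 0.0405), and the Nkx call was lost in 6 of 14 other settings, among them the fits without WT replicate 1 or 2 and without Nkx replicate 1 or 3.

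Cd68 and Mpeg1, a lysosomal glycoprotein and a pore-forming protein much used as macrophage markers, did not pass the test. Cd68 was 7.56, 7.95 and 7.85 for WT, 6.85, 8.20 and 7.61 for NANCI, 7.29, 7.46 and 7.72 for Nkx and 7.40, 7.52 and 7.21 for Double. Mpeg1 was 9.90, 9.57 and 9.997 for WT, 9.67, 9.97 and 9.93 for NANCI, 9.77, 10.07 and 10.27 for Nkx and 9.83, 9.61 and 9.85 for Double. The Nkx values overlapped WT for both genes, and the Double values of Cd68 lay just below those of WT. The differences in Nkx were -0.30 (95% interval -0.95 to 0.36) for Cd68 and 0.22 (-0.16 to 0.59) for Mpeg1, and in Double -0.41 (-1.06 to 0.25) and -0.06 (-0.43 to 0.31). These intervals exclude changes of the size seen for F13a1 or Mrc1.

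Of the 5 genes shared by myeloid cells and lymphocytes, 1 fell in Nkx and 3 fell in Double. Ptprc, which encodes CD45, was 6.67, 6.17 and 6.84 for WT, 5.57, 6.72 and 6.25 for NANCI, 4.29, 5.18 and 3.40 for Nkx and 1.92, 4.80 and 4.98 for Double. All Nkx and Double libraries were below all WT and NANCI libraries. The change was -2.66 ± 0.73 in Double (limma, adjusted p = 0.0292) and -2.27 ± 0.73 in Nkx (adjusted p = 0.0829), and the Double call was lost in 5 of 14 other settings, among them the fits without WT replicate 1 or 3 and without Double replicate 1.

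Cd53, a leukocyte tetraspanin, fell in both genotypes, by 3.34 ± 0.63 in Nkx and by 2.77 ± 0.63 in Double (limma, adjusted p = 0.00745 and 0.0112). It was 6.30, 4.54 and 5.83 for WT and between 1.0 and 2.89 in all Nkx and Double libraries, and with values under 5 raised to 5 the difference was -0.71 in both and no longer passed. Laptm5, a lysosomal protein of blood cells, fell by 3.00 ± 0.77 in Double (limma, adjusted p = 0.0209) from 6.85, 7.02 and 6.03 for WT, and without WT replicate 1, WT replicate 2 or Double replicate 1 it did not pass. Cd52, a small glycoprotein of lymphocytes and monocytes, differed by -2.19 ± 0.92 in Nkx and by -1.96 ± 0.92 in Double (limma, adjusted p = 0.187 and 0.194). Lcp1, the actin-bundling protein L-plastin, lay between 13.33 and 14.00 in every E18.5 library and differed by 0.21 ± 0.13 and -0.10 ± 0.13, neither past the test.

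The 3 genes of myeloid signalling and the oxidase all had lower means in both genotypes, and 1 fell in Nkx and 2 in Double. Fcgr3, a low-affinity receptor for IgG, was 7.37, 7.59 and 6.57 for WT, 6.14, 6.78 and 5.78 for NANCI, 4.29, 5.78 and 4.48 for Nkx and 3.77, 4.01 and 3.35 for Double. All Nkx and Double libraries were below all WT and NANCI libraries, the highest Nkx library only just, and the Double libraries were the lowest. Fcgr3 fell by 2.32 ± 0.47 in Nkx and by 3.47 ± 0.47 in Double (limma, adjusted p = 0.00965 and 0.000462). Reads of Fcgr3 may be shared with its paralogues Fcgr2b and Fcgr4.

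Fcer1g, the signalling chain that Fc receptors share, was 5.30, 5.90 and 5.93 for WT, 3.94, 4.45 and 1.13 for Nkx and 2.89, 3.52 and 3.35 for Double. The difference was -2.46 ± 0.72 in Double (limma, adjusted p = 0.0391) and -2.54 ± 0.72 in Nkx (adjusted p = 0.0534), and the Double call held in 5 of 13 other settings and in none of the 6 that left out 1 library. Cybb, the catalytic subunit of the phagocyte oxidase, was 6.79, 5.90 and 6.13 for WT, 1.99, 5.60 and 2.76 for Nkx and 1.0, 4.71 and 4.77 for Double, a difference of -2.82 ± 1.01 and -2.78 ± 1.01 that did not pass (limma, adjusted p = 0.12 and 0.0896). In both genes the spread between Nkx libraries was several log2 units.

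Cd79b, a chain of the B cell receptor and the lymphocyte gene analysed at this age, moved less than most macrophage genes. It was 9.12, 9.33 and 8.60 for WT, 8.37, 8.70 and 8.96 for NANCI, 7.72, 8.12 and 7.94 for Nkx and 7.37, 8.13 and 7.65 for Double. The 6 Nkx and Double libraries were below the 6 others. Cd79b fell by 1.09 ± 0.26 in Nkx and by 1.30 ± 0.26 in Double (limma, adjusted p = 0.023 and 0.0054), beside a median of -3.22 and -3.03 over the 11 macrophage receptors and products. The Nkx call was lost in 6 of 14 other settings, among them the fits without WT replicate 1 or 2 and without Nkx replicate 1 or 3. With 1 lymphocyte gene, no difference between macrophage and lymphocyte genes was tested.

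**Figure D3:**
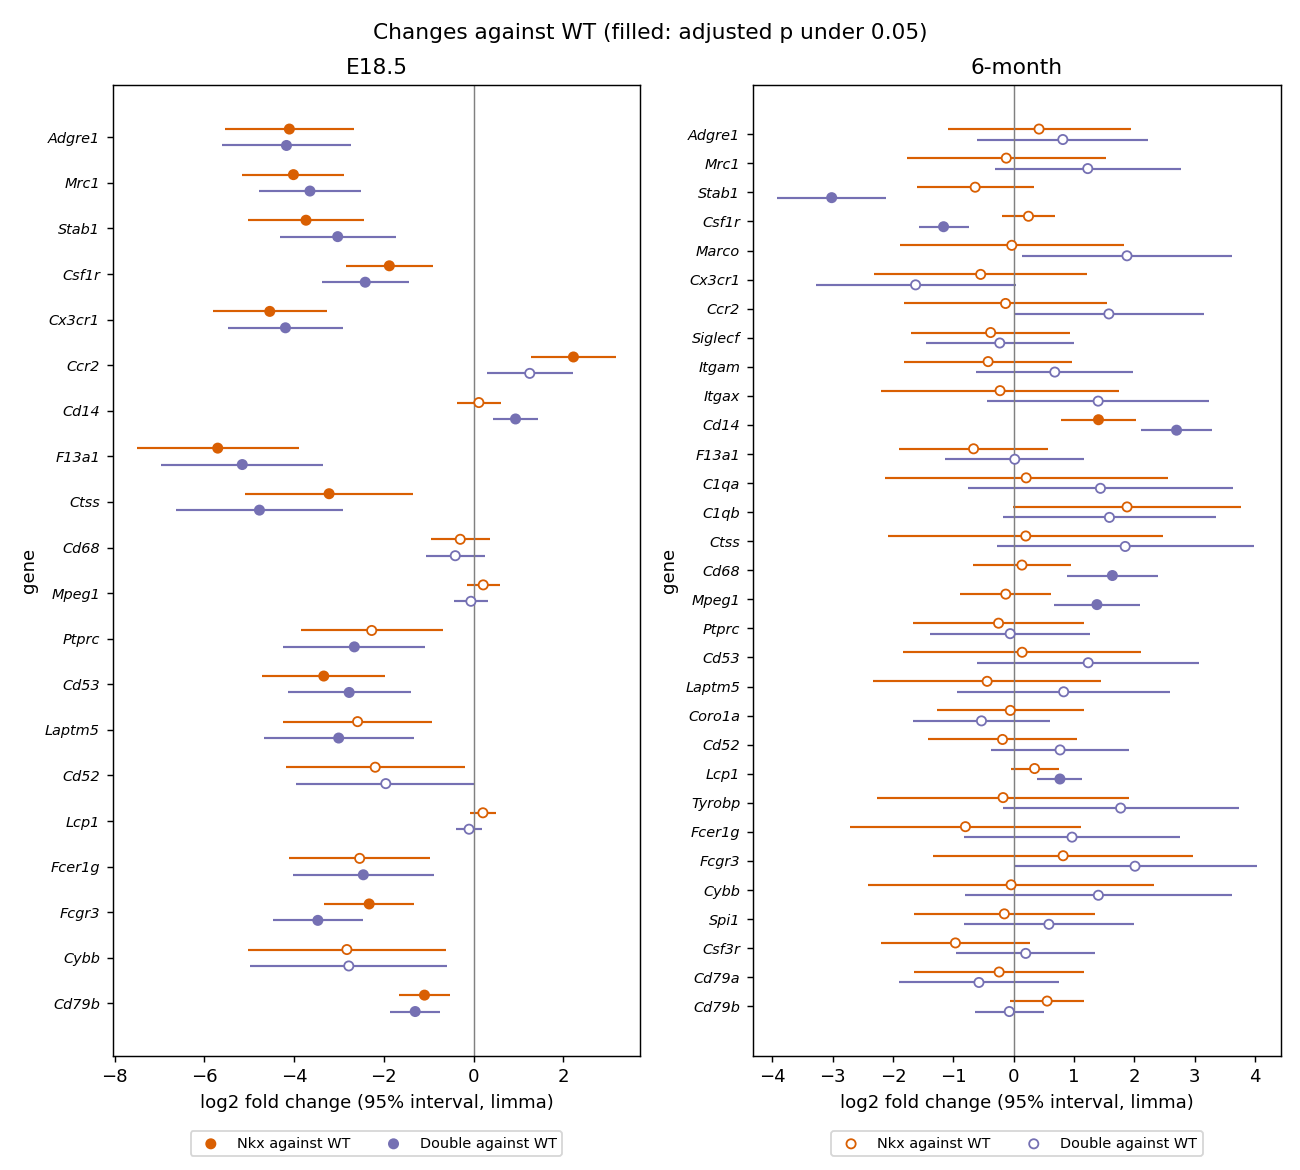
Points are log2 fold changes of Nkx (orange) and Double (purple) against WT with 95% intervals from limma, at E18.5 (left) and 6 months (right); filled points passed at an adjusted p under 0.05. At E18.5 most intervals of both genotypes lie below 0, and at 6 months most cross 0. Of the 31 in Double at 6 months, 8 do not cross it, among them Stab1 and Csf1r below and Cd14, Cd68, Mpeg1 and Lcp1 above. In Nkx at 6 months 1 does not cross it, that of Cd14.

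In NANCI, no leukocyte gene passed the test in limma, and neither did any other gene (0% called). At an unadjusted p under 0.05 there were 2 of the 20, Mrc1 and Cx3cr1, beside 3.1% of all genes. Means were below WT for 16 of 20, with a median of -0.55 beside 0.01 for all genes. Mrc1, Cx3cr1, F13a1, Ctss and Cybb were lower in every NANCI library than in every WT library, where 3.3% of all genes were. Their differences were -1.44 ± 0.52 for Mrc1, -1.75 ± 0.59 for Cx3cr1 and -1.49 ± 0.83 for F13a1, each with adjusted p = 0.978 in limma. All NANCI libraries had the male pattern of sex-linked genes, whereas the WT libraries had both patterns. With sex as a covariate no leukocyte gene passed either.

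Double and Nkx did not differ in any of the 20 genes by limma, where 0.00727% of all genes passed, 1 gene in number. At an unadjusted p under 0.05 there were 4, with Ccr2, Lcp1 and Fcgr3 lower and Cd14 higher in Double, beside 4.07% of all genes. The intervals were wide: for Mrc1 the difference of 0.37 had a 95% interval of -0.77 to 1.50, and for F13a1 that of 0.55 had one of -1.26 to 2.35. The test therefore does not show that the genotypes were alike.

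Other leukocyte genes, taken from wider lists, also held myeloid genes that fell. Of all genes tested, 3.65% fell and 3.67% rose in Nkx, and 7.47% fell and 7.13% rose in Double. Of 8 other macrophage genes, 3 fell and 1 rose in Nkx, and 4 fell and 1 rose in Double. Those that fell include Pf4, a chemokine of platelets and some macrophages (-2.30 ± 0.33 in Nkx and -1.84 ± 0.33 in Double), and Csf2rb, the shared chain of the GM-CSF and IL-3 receptors (-1.67 ± 0.36 and -2.17 ± 0.36). Ccl9, a chemokine, rose by 4.81 ± 0.54 and 4.65 ± 0.54. Of 16 other genes found across leukocytes, 4 fell in Nkx and 9 fell and 1 rose in Double. In Double these include Nckap1l, a regulator of actin in blood cells (-2.62 ± 0.82), the small GTPase Rac2 (-1.43 ± 0.34) and the oxidase subunit Ncf1 (-1.39 ± 0.18), while Arhgdib rose by 0.75 ± 0.18. Hdc, which encodes histidine decarboxylase and was the only gene of the mast cell and basophil list analysed, fell by 1.48 ± 0.19 and 1.99 ± 0.19. Which cells its transcripts came from was not tested. Neither of 2 T and NK cell genes, nor the 1 other B cell gene, nor the 1 neutrophil gene passed.

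Markers of other cell types were read in the same E18.5 libraries. Of 9 endothelial genes, none passed in Nkx and 2 fell in Double, and their mean per library was 6.68 to 7.51 in WT, 6.57 to 7.28 in NANCI, 6.22 to 7.14 in Nkx and 5.82 to 7.14 in Double. Of 6 fibroblast and smooth muscle genes, none passed in Nkx, and 2 fell and 1 rose in Double, with means of 6.39 to 6.96 in WT, 5.49 to 6.44 in NANCI, 5.39 to 6.49 in Nkx and 5.59 to 5.81 in Double. In NANCI none of these 6 passed, and their median difference from WT was -0.88. None of these markers was at a library's lowest value. The 20 leukocyte genes averaged 7.49 to 7.80 in WT, 6.95 to 7.08 in NANCI, 4.93 to 6.12 in Nkx and 4.87 to 5.77 in Double. Whether the amount of carried-over cells differed between the pulldowns was not tested.

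**Figure D4:**
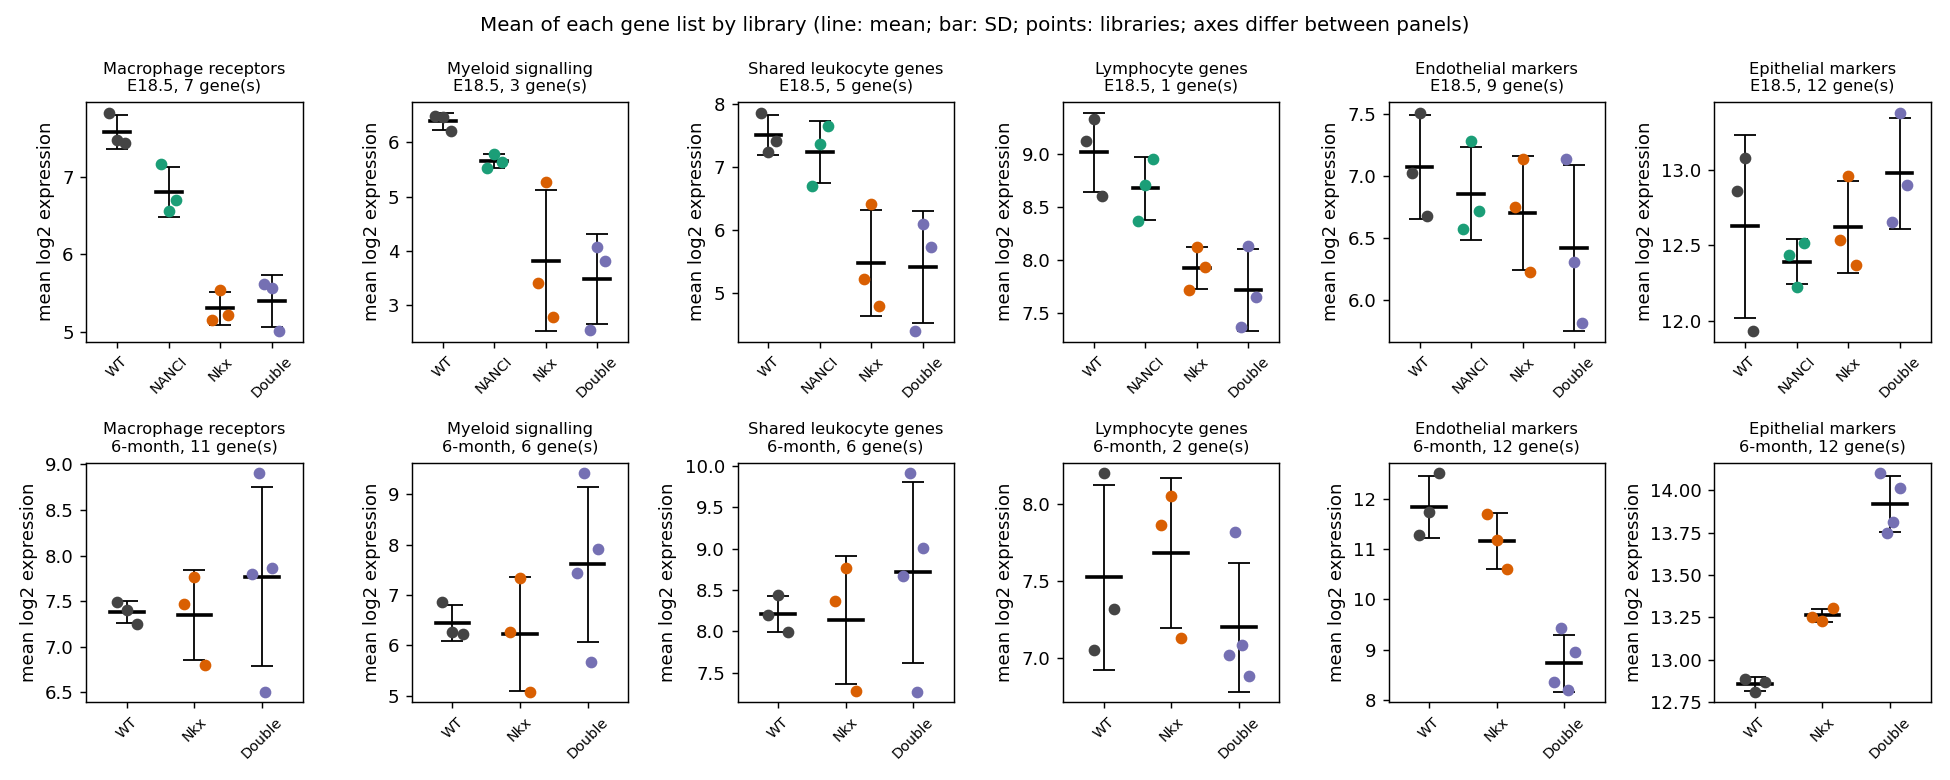
Each point is a library, at the mean log2 expression of the genes of a list, for leukocyte genes by role and for markers of other cell types, at E18.5 and 6 months. At E18.5 the macrophage lists step down in Nkx and Double while the endothelial ranges of the 4 genotypes overlap, and at 6 months the endothelial mean is 11.28 to 12.50 in WT and 8.20 to 9.43 in Double.

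At 6 months, the fall of macrophage genes was not seen in Nkx. Of 31 leukocyte genes, none fell and 1, Cd14, rose, where 1.11% of all genes fell and 1.52% rose. The median change was -0.13 beside 0.01 for all genes. Single Nkx libraries went both ways. Replicate 2 was above all WT libraries for 20 of the 31 genes, beside 33.2% of all genes. Replicate 3 was below all WT libraries for 21, beside 29%. Mrc1, which fell so far at E18.5, was 6.97, 6.96 and 7.25 for WT and 7.06, 7.57 and 6.19 for Nkx, a difference of -0.12 (95% interval -1.77 to 1.53). The corresponding differences were 0.42 (-1.09 to 1.94) for Adgre1 and -0.66 (-1.90 to 0.57) for F13a1. No test was made of the difference between ages.

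In Double at 6 months, 2 leukocyte genes fell and 4 rose against WT, where 17.9% of all genes fell and 18.4% rose. The 6 of 31 genes are a smaller share than the 36.3% of all genes called. The median change was 0.83, beside 0.06 for all genes. Against Nkx, 2 fell and 3 rose, where 11.5% of all genes fell and 10.2% rose, and the median was 1.11 beside 0.03. When libraries were centred on the pan-epithelial genes, which moves the median of all genes to -1.0 against WT and -0.62 against Nkx, the counts became 6 lower and 1 higher against WT and 3 lower and none higher against Nkx.

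Stab1 and Csf1r fell. Stab1 was 9.63, 10.09 and 10.86 for WT, 10.14, 9.68 and 8.86 for Nkx and 6.89, 7.98, 6.38 and 7.46 for Double. Csf1r was 10.66, 10.72 and 10.02 for WT, 10.62, 10.63 and 10.90 for Nkx and 8.97, 9.50, 9.32 and 9.44 for Double. For both, every Double library was below every WT and Nkx library. Stab1 fell by 3.01 ± 0.41 against WT and by 2.38 ± 0.41 against Nkx (limma, adjusted p = 0.000236 and 0.00232), and Csf1r by 1.16 ± 0.19 and by 1.41 ± 0.19 (adjusted p = 0.000717 and 0.000575). Both calls held in all 16 other settings of each comparison.

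Markers of other cells fell in the same libraries. All 12 endothelial genes fell in Double against WT, with a median of -3.25, and their mean per library was 11.28 to 12.50 in WT, 10.60 to 11.70 in Nkx and 8.20 to 9.43 in Double. Of 11 fibroblast and smooth muscle genes, 9 fell, with means of 9.31 to 10.07, 8.70 to 9.36 and 6.51 to 8.04. None of these markers was at a library's lowest value, although the sort gated against CD31. Their part in the Stab1 and Csf1r values was not tested. Lyve1, carried by lymphatic endothelium and some macrophages, fell by 3.71 ± 0.68 against WT.

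Cd14 rose in both genotypes. It was 12.22, 10.99 and 12.02 for WT, 13.31, 13.50 and 12.66 for Nkx and 14.46, 14.42, 14.57 and 14.34 for Double. The 3 groups did not overlap and stood in this order, and the Double libraries lay close together. The rise was 1.41 ± 0.29 in Nkx against WT (limma, adjusted p = 0.0304), 2.70 ± 0.27 in Double against WT (adjusted p = 3e-05) and 1.29 ± 0.27 in Double against Nkx (adjusted p = 0.00583). The Nkx call held in 7 of 14 other settings and was lost without WT replicate 2 and without Nkx replicate 1 or 2. The Double call against WT held in all 16, with 1.64 under the epithelial centring.

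Cd68, Mpeg1 and Lcp1 rose in Double against WT. Cd68 was 8.42, 8.46 and 8.14 for WT, 8.33, 8.99 and 8.10 for Nkx and 9.64, 11.06, 9.59 and 9.60 for Double. Mpeg1 was 9.82, 10.26 and 9.95 for WT, 10.17, 10.23 and 9.26 for Nkx and 11.24, 12.32, 10.85 and 11.17 for Double. Every Double library was above every WT and Nkx library for both genes, and Double replicate 2 was the highest. Cd68 rose by 1.64 ± 0.34 and Mpeg1 by 1.38 ± 0.32 (limma, adjusted p = 0.00341 and 0.00628), and against Nkx by 1.50 ± 0.34 and 1.51 ± 0.32 (adjusted p = 0.00984 and 0.00676). Without Double replicate 2 alone the rises against WT were 1.28 and 1.07, and both still passed. Without Double replicates 2 and 3, a fit chosen after the values were seen, they were 1.29 and 1.19.

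Lcp1 was 13.03, 12.98 and 12.63 for WT, 12.99, 13.46 and 13.24 for Nkx and 13.50, 13.80, 13.95 and 13.34 for Double. Double lay above WT and overlapped Nkx. The rise was 0.77 ± 0.17 against WT (limma, adjusted p = 0.00471), and Lcp1 did not pass against Nkx (0.42 ± 0.17, adjusted p = 0.104). Under the epithelial centring these genes lost their calls against WT: Cd68 was 0.58 (adjusted p = 0.183), Mpeg1 0.32 (adjusted p = 0.417) and Lcp1 turned to -0.29 (adjusted p = 0.23). Relative to the shifted median of all genes, Cd68 was 1.57, Mpeg1 1.32 and Lcp1 0.71. Of the 12 pan-epithelial genes, 10 themselves rose in Double, and their mean per library was 12.81 to 12.89 in WT, 13.23 to 13.31 in Nkx and 13.75 to 14.10 in Double. With sex as a covariate Mpeg1 no longer passed against WT. All 4 Double libraries had the female pattern of sex-linked genes, and the WT libraries had both patterns.

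The other myeloid genes at 6 months varied from library to library. Ctss was 8.46, 8.33 and 8.44 for WT, 8.57, 9.82 and 7.44 for Nkx and 10.08, 12.88, 7.35 and 10.72 for Double. Cybb was 7.83, 7.42 and 7.53 for WT, 7.57, 9.06 and 6.03 for Nkx and 9.16, 11.45, 6.02 and 9.37 for Double. Marco, a scavenger receptor of alveolar macrophages, was 6.14, 5.33 and 6.60 for WT, 6.04, 6.25 and 5.69 for Nkx and 7.63, 9.45, 5.39 and 9.14 for Double. The WT libraries lay close together for Ctss and Cybb and spread over 1.28 for Marco. In all 3 genes Double replicates 1, 2 and 4 were above all of WT, and Double replicate 3 was at the level of WT or below it.

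Itgax, the integrin CD11c of alveolar macrophages and dendritic cells, was 7.36, 7.74 and 7.08 for WT, 7.02, 8.10 and 6.40 for Nkx and 9.0, 10.93, 6.14 and 9.13 for Double. Tyrobp, the adaptor DAP12 of myeloid receptors, was 6.78, 7.08 and 5.95 for WT, 6.61, 7.93 and 4.73 for Nkx and 8.07, 10.61, 6.38 and 8.44 for Double. Both repeat that order of the Double libraries. None of these 5 passed in Double against WT: the differences were 1.85 ± 0.97 for Ctss, 1.41 ± 1.01 for Cybb, 1.88 ± 0.79 for Marco, 1.40 ± 0.84 for Itgax and 1.77 ± 0.89 for Tyrobp, with adjusted p of 0.16, 0.307, 0.0849, 0.218 and 0.143 in limma.

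Cybb, Marco, Itgax and Tyrobp passed in no comparison and were chosen as examples after their values were seen. Their means were higher in Double than in WT, as for 23 of the 31 genes, while 8 had lower means. Cx3cr1, which fell at E18.5, went the other way, with means of 5.06 for WT, 4.52 for Nkx and 3.44 for Double. It did not pass at 6 months, and 1 Double library held it at the lowest value. The remaining genes that passed nowhere were Siglecf, Itgam, C1qa, C1qb, Coro1a, Cd52, Spi1, Csf3r and Cd79a. They differed from WT by between -0.57 (Cd79a) and 1.59 (C1qb) in Double and by between -0.96 (Csf3r) and 1.88 (C1qb) in Nkx. Spi1, the gene of PU.1, was 6.24, 6.68 and 6.55 for WT and 6.72, 8.50, 5.55 and 7.53 for Double.

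Over the 31 genes, Double replicate 2 was the highest Double library for 29, and Double replicate 3 the lowest for 24, beside 25.8% and 21% of all genes. The value in replicate 2 minus that in replicate 3 had a median of 2.24 and a range of -0.15 for Cd14 to 5.53 for Ctss, and it was over 2 for 19 genes, where 3.64% of all genes had such a gap. The Nkx group split in the same manner, with replicate 2 highest for 25 of 31 and replicate 3 lowest for 25, beside 33.7% and 34% of all genes. In Double, the smallest gaps between replicates 2 and 3 were those of Cd14, Lcp1 (-0.14), Csf1r (0.18) and Cd79b (0.22). Whether the sorts held different numbers of leukocytes was not tested.

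**Figure D5:**
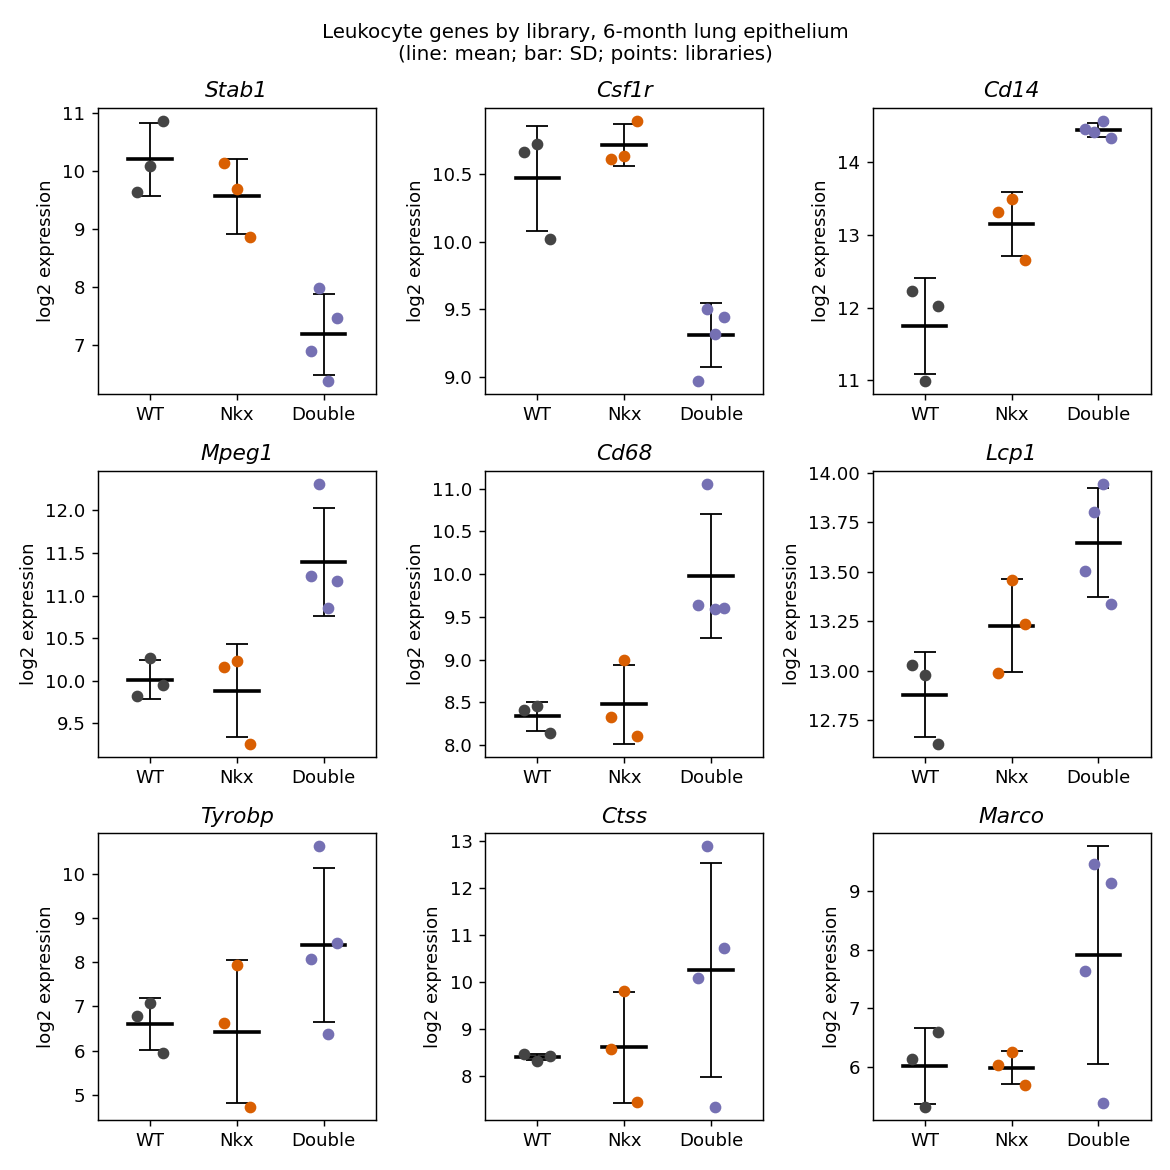
Points are 6-month libraries, lines the group means and bars the SD, in log2 expression. The Double points of the myeloid genes spread over several log2 units, with replicate 2 highest, whereas the 4 Double points of Cd14 lie between 14.34 and 14.57.

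Without Double replicate 3, 2 genes fell and 14 rose against WT, where 17.6% of all genes fell and 17.1% rose. The 14 are Adgre1, Cd14, Cd53, Cd68, Ctss, Cybb, Fcgr3, Itgax, Laptm5, Lcp1, Marco, Mpeg1, Mrc1 and Tyrobp, with Ctss at 2.82 ± 0.68 and Marco at 2.72 ± 0.49 (limma, adjusted p = 0.00924 and 0.00192). Against Nkx, 2 fell and 12 rose, where 11.2% of all genes fell and 9.29% rose. Without Double replicate 2 in its place, 3 fell and 4 rose against WT, where 17.3% of all genes fell and 17.4% rose. The 3 that fell were Csf1r, Stab1 and Cx3cr1, the last at -2.13 ± 0.71 (limma, adjusted p = 0.0386). Ctss then stood at 0.98 ± 0.78 (limma, adjusted p = 0.362). Without Double replicates 2 and 3 together, 2 fell and 9 rose, where 16.1% of all genes fell and 14.5% rose. The 9 include Ctss at 1.99 ± 0.54, Itgax, Marco, Mrc1 and Fcgr3. These 2 libraries were left out after they were seen to be the highest and lowest for most of these genes. That choice itself narrows the spread, so the 9 calls are a description and not a test. The count of rising myeloid genes in Double therefore depended on which libraries entered.

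Ptprc, whose product the sort gated against, was 7.36, 8.44 and 7.57 for WT, 7.57, 8.14 and 6.91 for Nkx and 7.87, 9.01, 5.90 and 8.16 for Double. The groups overlapped, and the difference of Double from WT was -0.06 (95% interval -1.38 to 1.27). Ptprc was not at the lowest value in any library.

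Neither lymphocyte gene passed the test at 6 months with all libraries in the fit. Cd79b was 9.56, 9.61 and 9.07 for WT, 9.74, 10.43 and 9.74 for Nkx and 9.09, 9.83, 9.61 and 8.83 for Double. The Nkx libraries lay just above those of WT, and Double overlapped both. The differences from WT were 0.56 ± 0.28 in Nkx and -0.07 ± 0.26 in Double (limma, adjusted p = 0.27 and 0.862). Cd79a, between 4.52 and 6.78 in all 10 libraries, differed by -0.24 ± 0.64 and -0.57 ± 0.60 and passed in neither. The 17 macrophage receptors and products had a median of 1.38 in Double and the 2 lymphocyte genes one of -0.32. Of the 17, 3 rose and 2 fell, and their changes ran from -3.01 to 2.70. No difference between macrophage and lymphocyte genes was tested. In Double against Nkx, Cd79b was at -0.63 and did not pass with all libraries. It passed as lower without Double replicate 2, at -0.79 ± 0.25 (limma, adjusted p = 0.0491), where 11.6% of all genes fell. Without Double replicate 3 it did not pass (-0.72 ± 0.28, limma, adjusted p = 0.0991). Without both it stood at -1.01 ± 0.25 and passed, but that fit was chosen after the values were seen.

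The wider lists at 6 months held both directions. In Double against WT 17.9% of all genes fell and 18.4% rose, and the shares called of the macrophage, pan-leukocyte, T and NK cell and B cell lists were below the 36.3% called of all genes. Of 22 other macrophage genes, 2 fell and 3 rose in Double against WT, the latter being the prostaglandin synthase Hpgds (2.70 ± 0.56), the lipid receptor Trem2 (2.46 ± 0.83) and Ccl9 (1.72 ± 0.47). Hpgds, with a mean under 5, was named after its values were seen. Those that fell were Lyve1 and Ms4a6b (-1.65 ± 0.55). Of 26 other genes found across leukocytes, 1 fell, the proteoglycan Srgn (-1.79 ± 0.44), and 2 rose, Rac2 (0.88 ± 0.26) and the adhesion receptor Cd44 (0.69 ± 0.16). Of 12 T and NK cell genes Zap70 alone passed, falling by 1.84 ± 0.46. Of 10 other B cell genes, 2 fell, Vpreb3 (-1.49 ± 0.23) and Ebf1 (-1.56 ± 0.45). Both genes of the mast cell and basophil list fell, Hdc by 2.37 ± 0.18 and Gata2 by 3.52 ± 0.39. All 12 endothelial genes fell in the same comparison, and which cells the Hdc and Gata2 transcripts came from was not tested. Of 4 neutrophil genes 2 rose, Retnlg by 4.31 ± 0.47 and Ltf by 5.80 ± 1.03. Ltf encodes lactoferrin, a secreted iron-binding protein that glandular epithelium also makes. In Nkx against WT the only gene of the wider lists that passed was Retnlg, at 2.57 ± 0.51.

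Where gene models overlap, reads may have been credited to either gene, since the handling of strand is not given. Of the 31 leukocyte genes, 6 overlap another gene analysed here in the GENCODE annotation on GRCm38: Cd52, Coro1a, Csf1r, Cx3cr1, Lcp1 and Stab1. Stab1 overlaps Nt5dc2 and Csf1r overlaps Hmgxb3, each on the opposite strand. Cx3cr1 overlaps Wdr48 and Ttc21a on the opposite strand and Gorasp1 and Csrnp1 on the same strand.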

How the data were processed

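The deposited files hold 1 log2 value per Ensembl gene ID and library. That the values were quantile-normalized within each age was read from the values, whose distributions are nearly equal. The submitters' processing notes name STAR, limma and build mm9; neither their versions and roles nor the filter on genes were given in the sources used here. Symbols came from a GENCODE annotation on GRCm38, for 99.2% of IDs at E18.5 and 96.2% at 6 months. Depth is unknown, so no interval from counts is given. Groups came from the labels.

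For the 7 comparisons, limma 3.58.1 (R 4.3.3) fitted a single model to each age, with group as the factor and empirical Bayes moderation with a trend. The fit was tested on simulated data. Two-sided p-values had the Benjamini-Hochberg adjustment across the genes of the age, and the threshold was 0.05. Listed genes that passed anywhere, and all lymphocyte genes, were to be given by library, the rest by range; of each wider list at most 3 passing genes in each direction with a mean of at least 5 were named. Exceptions are stated. The members and lists were chosen with earlier results of these data known.

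Same-numbered libraries deviated together in all 3 pairs of E18.5 Double and Nkx alone (r = 0.18 to 0.504), where numbers 1 and 2 had the female and 3 the male pattern in both groups. Alternatives were a replicate block, only both groups in the fit, no trend, a minimum mean, a floor, epithelial centring, covariates for sex and for the number of distinct low values, and each library left out. The fits without Double libraries 2 and 3 together were chosen after seeing the data.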

Additional observations from a re-analysis of the deposited data

Results flagged for a closer look

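Cx3cr1 in the 6-month Double group had 1 library far from the others, replicate 2 at 4.95, while the other 3 lay between 2.85 and 3.11; the gap was 0.873 of the group's range. Cd68 in the same group had replicate 2 at 11.06 and the other 3 between 9.59 and 9.64, a gap of 0.968 of the range. A gap was flagged when it passed a cutoff that chance reaches in about 1 in 20 groups of 4, and both gaps lay beyond it. The search covered 31 genes. They were not independent, since Double replicate 2 was the highest Double library for 29 of the 31. 

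Cd79b went opposite ways in Nkx against WT at the 2 ages, -1.09 at E18.5 and 0.56 at 6 months, with no overlap between the groups at either age. Cd68 in Double against WT did so too, -0.41 at E18.5 and 1.64 at 6 months. The 6-month change of Cd79b and the E18.5 change of Cd68 did not pass. Such gaps were common: in Nkx, 1432 of all 13750 genes lay below WT without overlap at E18.5, and 2574 of 15958 above it at 6 months. In Double, 1826 lay below WT in this way at E18.5 and 3370 above it at 6 months. Neither difference between the ages was tested, since enrichment changed with age.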

How the results depend on the processing

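For E18.5 Nkx against WT, 11 of the 20 leukocyte genes passed, 6 when centred on pan-epithelial genes, and 7 to 13 when 1 library was left out, the 7 without WT replicate 1. For E18.5 Double against WT, 14 passed, and leaving out 1 library gave 10 to 13. For 6-month Nkx against WT, the 1 call (Cd14) became 0 with the replicate block, with both groups alone, without a trend and with sex as a covariate, and 0 to 1 with 1 library left out. For 6-month Double against WT, 6 passed, 11 without Double libraries 2 and 3, and 6 to 16 with 1 library left out, the 16 without Double replicate 3. For 6-month Double against Nkx, 5 passed, 3 when centred, 11 without Double libraries 2 and 3, and 5 to 14 with 1 library left out, the 14 without Double replicate 3. Lcp1 in 6-month Double against WT turned to -0.29 when centred. The cause was not tested. With the replicate block, counts lower and higher were 10 and 1 in E18.5 Nkx against WT, 12 and 2 in E18.5 Double against WT, 2 and 6 in 6-month Double against WT, 2 and 5 against Nkx, and 0 in both other E18.5 comparisons. Of the settings for single genes, 476 kept direction and call, 56 kept direction alone and 1 reversed. Unknown read totals limit all values near the bottom of the scale.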
